A study of Mus musculus with 12 samples.

Results

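The genes described here are 10 that let immune cells sense lipopolysaccharide (LPS) and other microbial molecules: the LPS co-receptors Cd14 and Ly96, the Toll-like receptors Tlr1, Tlr2, Tlr3, Tlr4, Tlr6, Tlr7 and Tlr9, and the adaptor Myd88. They were found by the platform's gene symbol, and all 10 had a probe set on the array, 14 probe sets in all, out of 12393 genes measured. The data are intensities of spleen RNA from 12 mice, 1 Affymetrix MOE430A 2.0 array per mouse, in a study of how the phosphatase DUSP1 controls the LPS response. The groups, of 3 mice each, were DUSP1-/- mice taken 6 h after intraperitoneal Escherichia coli LPS, 10 µg for each g the mouse weighed (DUSP1-/- LPS), untreated DUSP1-/- mice (DUSP1-/- control), DUSP1+/+ mice given the same LPS (DUSP1+/+ LPS) and untreated DUSP1+/+ mice (DUSP1+/+ control). Age, sex and strain are not given in the sources used here.

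Free LPS, a component of the outer membrane of Gram-negative bacteria, is handed by CD14 to MD-2, the protein made from Ly96. MD-2 sits on TLR4, and the loaded pair dimerises and recruits adaptors inside the cell. TLR2 pairs with TLR1 or TLR6 and binds bacterial lipoproteins, whereas TLR3, TLR7 and TLR9 lie in endosomes and bind double-stranded RNA, single-stranded RNA and CpG-rich DNA. MyD88 is the adaptor of all of these receptors except TLR3, and passes the signal to NF-kB and the MAP kinases, which DUSP1 dephosphorylates. In the spleen, macrophages and monocytes carry much of the CD14 and TLR4, while B cells and plasmacytoid dendritic cells are known for TLR7 and TLR9.

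Several arrays stood apart. Dusp1 itself read 2948 to 4996 in DUSP1-/- LPS arrays and 2116 to 2248 in DUSP1+/+ LPS arrays, so its signal was not lower in arrays labelled DUSP1-/-. The sources used here do not say which part of Dusp1 was changed, so this probe set cannot test the genotypes, which are taken from the labels throughout. The pancreatic gene Prss2 read 503 to 8116 in DUSP1-/- control 1 and 3 and DUSP1+/+ control 1, against 25 to 53 in the other 9. Xist was low (35 and 47) in DUSP1+/+ control 2 and 3 and 1101 to 3949 elsewhere, with Eif2s3y the other way round (316 and 53, against 7 to 10), the pattern of male tissue in these mice and of female tissue in the remaining 10. Markers of spleen lymphocytes were present in all arrays, with a mean log2 intensity of 8.34 to 9.87 over 9 B cell markers and 7.12 to 8.64 over 8 T cell markers.

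In DUSP1-/- spleen 3 of the 10 genes rose after LPS (Cd14, Myd88 and Tlr2) and 0 fell. In DUSP1+/+ spleen 2 rose (Cd14 and Myd88) and 0 fell. These calls are limma adjusted p-values under 0.05 over all 22626 probe sets, read from 1 probe set per gene. Across all 12393 genes, 5.54% rose and 9.71% fell in DUSP1-/- spleen, 15.2% in all, and 3.93% rose and 4.16% fell in DUSP1+/+ spleen, 8.09% in all. The median log2 difference of the 10 genes was 1.03 in DUSP1-/- spleen, beside -0.06 for all genes, and 0.35 in DUSP1+/+ spleen, beside -0.03 for all genes. The DUSP1-/- groups did not overlap for 7 of the 10 genes, 6 higher and 1 lower after LPS, where 28.9% of all genes did not overlap, 11.3% higher and 17.6% lower. The DUSP1+/+ groups did not overlap for 3 of the 10, all higher, where 25.0% of all genes did not overlap, 10.2% higher and 14.8% lower. This count lay near the share of all genes in either direction, though not near the share higher. Fewer cells of a type and less RNA per cell cannot be told apart in whole spleen.

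**Figure D1:**
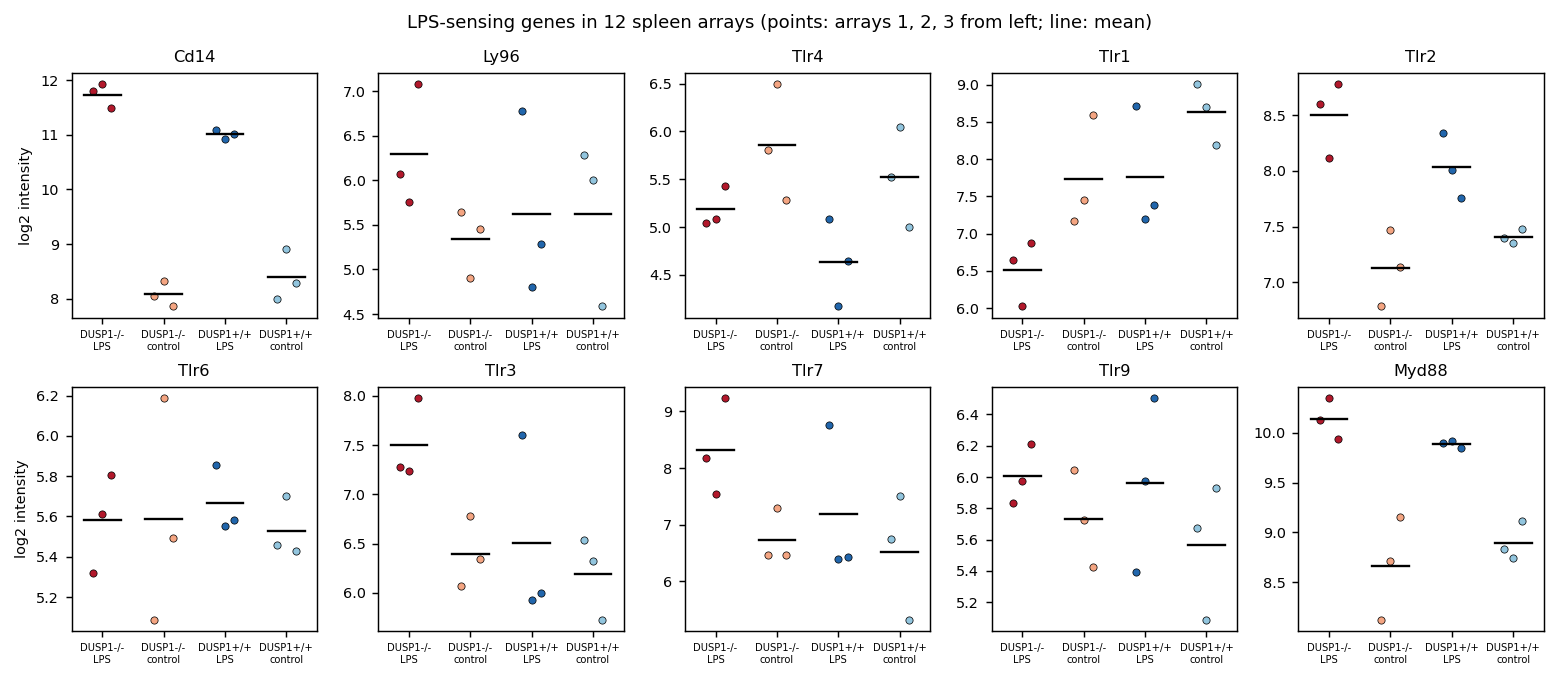
Log2 intensity (y axis) of each of the 10 genes in the 12 arrays, by group (x axis). Points are arrays 1, 2 and 3 of a group from left to right and lines are group means. Cd14, Tlr2 and Myd88 after LPS lie above both control groups in every array, while Ly96, Tlr1, Tlr3 and Tlr7 have 1 high DUSP1+/+ LPS array, the first.

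Cd14, which binds LPS and hands it on, had the largest response of the 10. It read 3549, 3885 and 2883 in DUSP1-/- LPS spleens, against 265, 321 and 232 in DUSP1-/- controls. It read 2187, 1935 and 2081 in DUSP1+/+ LPS spleens, against 256, 478 and 314 in DUSP1+/+ controls. Neither LPS group overlapped its controls, and all 3 DUSP1-/- LPS arrays lay above all 3 DUSP1+/+ LPS arrays. The rise was 12.6-fold in DUSP1-/- spleen (log2 difference 3.66 ± 0.23, standard error from limma, n = 3 each, adjusted p = 1.31e-05). In DUSP1+/+ spleen it was 6.12-fold (2.61 ± 0.23, limma adjusted p = 0.000147). Both calls held in each of 24 alternatives. The DUSP1-/- LPS level was 1.65 times the DUSP1+/+ LPS level (0.72 ± 0.23), which did not pass (limma adjusted p = 0.315), nor did the difference between the responses (1.05 ± 0.33, adjusted p = 0.671).

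Cd14 rose while the mean of the monocyte and macrophage markers was lower after LPS in both genotypes. Of 13 such markers, 0 rose and 3 fell in DUSP1-/- spleen, and 0 rose and 6 fell in DUSP1+/+ spleen. Of all genes, 5.54% rose and 9.71% fell in DUSP1-/- spleen, and 3.93% rose and 4.16% fell in DUSP1+/+ spleen. Their mean log2 intensity was 7.75 to 8.01 in DUSP1-/- LPS and 8.28 to 8.58 in DUSP1-/- control arrays, and 7.37 to 7.48 in DUSP1+/+ LPS and 8.33 to 8.89 in DUSP1+/+ control arrays. Csf1r, the receptor for the macrophage growth factor CSF1, read 2383 to 4257 in DUSP1-/- LPS and 5364 to 5865 in DUSP1-/- control arrays. In DUSP1+/+ arrays it read 1768 to 2030 after LPS and 5521 to 5755 in controls. The list was mixed, with medians of -0.62 in DUSP1-/- and -1.06 in DUSP1+/+ spleen. Spic (1.09 ± 0.51 in DUSP1-/- and 0.61 ± 0.51 in DUSP1+/+) and Fcgr1 (0.64 ± 0.30 in DUSP1-/- and 0.88 ± 0.30 in DUSP1+/+) were higher on average, without a call. Of 12 neutrophil markers 1 (Lcn2) rose and 0 fell in each genotype, with list medians of -0.39 in DUSP1-/- and -0.06 in DUSP1+/+ spleen. Their mean log2 was 7.43 to 8.08 in DUSP1-/- LPS arrays and 7.25 to 8.67 in DUSP1-/- controls. In DUSP1+/+ arrays it was 7.97 to 8.31 after LPS and 7.22 to 9.03 in controls. The part of these cells in the Cd14 rise was not tested.

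Ly96 and Tlr4, the other pieces of the LPS receptor, did not pass in either genotype. Ly96 read 67, 54 and 135 in DUSP1-/- LPS spleens and 50, 30 and 44 in DUSP1-/- controls, with no overlap but a difference of 0.96 ± 0.57 (limma adjusted p = 0.344). In DUSP1+/+ mice it read 110, 28 and 39 after LPS and 78, 64 and 24 in controls, so that the groups overlapped and the first LPS array was the highest of the 6. Tlr4, the signalling receptor itself, was dim. Its brighter probe set (1418163_at) read 33, 34 and 43 in DUSP1-/- LPS and 56, 90 and 39 in DUSP1-/- control arrays, a difference of -0.68 ± 0.35 (limma adjusted p = 0.275). In DUSP1+/+ arrays it read 34, 18 and 25 after LPS and 46, 66 and 32 in controls, a difference of -0.89 ± 0.35 (limma adjusted p = 0.193). The other Tlr4 probe set (1418162_at) read 11, 13 and 12 in DUSP1-/- LPS against 41, 27 and 30 in DUSP1-/- control arrays, with no overlap. It read 18, 10 and 10 in DUSP1+/+ LPS against 47, 64 and 16 in DUSP1+/+ control arrays. Its differences of -1.42 ± 0.44 and -1.58 ± 0.44 did not pass (limma adjusted p = 0.0607 for the first, in DUSP1-/- spleen, and 0.0609 for the second, in DUSP1+/+ spleen). That probe set passed as lower in 6 of 22 alternatives in DUSP1-/- spleen and in 5 of 22 in DUSP1+/+ spleen. Without DUSP1+/+ control 3 its DUSP1+/+ difference was -2.17 (limma adjusted p = 0.00369) and its DUSP1-/- difference, unmoved at -1.42, also passed (0.00750). It passed in DUSP1-/- spleen without DUSP1+/+ control 2 (limma adjusted p = 0.0425), in DUSP1+/+ spleen without DUSP1+/+ LPS 1 (-1.86, 0.0484), and in both without the 2 arrays with the male pattern (0.0113 in DUSP1-/- and 0.0326 in DUSP1+/+ spleen). All 6 of its LPS values lay under 20, among the lowest 30.8% of all values, so the floor of the arrays limits how large a difference could be read. Both Tlr4 probe sets were thus lower on average after LPS in both genotypes while Cd14 was higher.

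Tlr2, the receptor for bacterial lipoproteins, rose in DUSP1-/- spleen. It read 388, 278 and 439 in DUSP1-/- LPS arrays, against 110, 177 and 141 in DUSP1-/- controls. It read 324, 257 and 216 in DUSP1+/+ LPS arrays, against 168, 163 and 178 in DUSP1+/+ controls. The LPS arrays lay above the controls without overlap in both genotypes, and the DUSP1+/+ controls were tightly grouped. The DUSP1-/- rise was 2.58-fold (1.37 ± 0.23, limma adjusted p = 0.00384), and was lost without the 3 arrays high in pancreatic transcripts, which leaves 1 DUSP1-/- control (1.03, adjusted p = 0.0695). The DUSP1+/+ difference of 1.55-fold (0.63 ± 0.23) did not pass (limma adjusted p = 0.160). The difference between the responses, 0.74 ± 0.33, did not pass either (limma adjusted p = 0.915), so Tlr2 is not shown to respond differently in the genotypes.

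Tlr1 and Tlr6 make the partner chains of TLR2. Tlr1 read 100, 65 and 117 in DUSP1-/- LPS arrays and 144, 175 and 385 in DUSP1-/- controls, lower after LPS without overlap. It read 420, 146 and 167 in DUSP1+/+ LPS arrays and 513, 415 and 293 in DUSP1+/+ controls, where the first LPS array reached the controls. The differences were -1.22 ± 0.46 in DUSP1-/- spleen (limma adjusted p = 0.121) and -0.87 ± 0.46 in DUSP1+/+ spleen (adjusted p = 0.364). Tlr1 was the 1 gene of the 10 that was lower in DUSP1-/- LPS than in DUSP1+/+ LPS arrays without overlap (-1.25 ± 0.46, limma adjusted p = 0.420), and in controls the difference was -0.89 ± 0.46. The B cell list was also lower on average after LPS. Of its 9 markers 0 rose and 3 fell in DUSP1-/- spleen, where 5.54% of all genes rose and 9.71% fell. In DUSP1+/+ spleen 0 of the 9 passed, where 8.09% of all genes did. Its mean log2 was 8.34 to 8.56 in DUSP1-/- LPS and 8.65 to 9.87 in DUSP1-/- control arrays. Ebf1 (0.47 ± 0.44) and Pax5 (0.22 ± 0.17) were higher there, uncalled, beside a list median of -0.69. The list mean was 9.60 in DUSP1-/- control 3, where Tlr1 read 385, and 9.87 in control 2, where Tlr1 read 175. The part of B cells in the Tlr1 values was not tested. Tlr6 was level, at 40, 49 and 56 in DUSP1-/- LPS and 34, 73 and 45 in DUSP1-/- control arrays (-0.01 ± 0.26), and at 58, 47 and 48 in DUSP1+/+ LPS and 44, 52 and 43 in DUSP1+/+ control arrays (0.14 ± 0.26). The 3 chains of the lipoprotein receptors thus had differences of 3 kinds after LPS in DUSP1-/- spleen, a called rise, an uncalled lower value and a difference near 0.

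**Figure D2:**
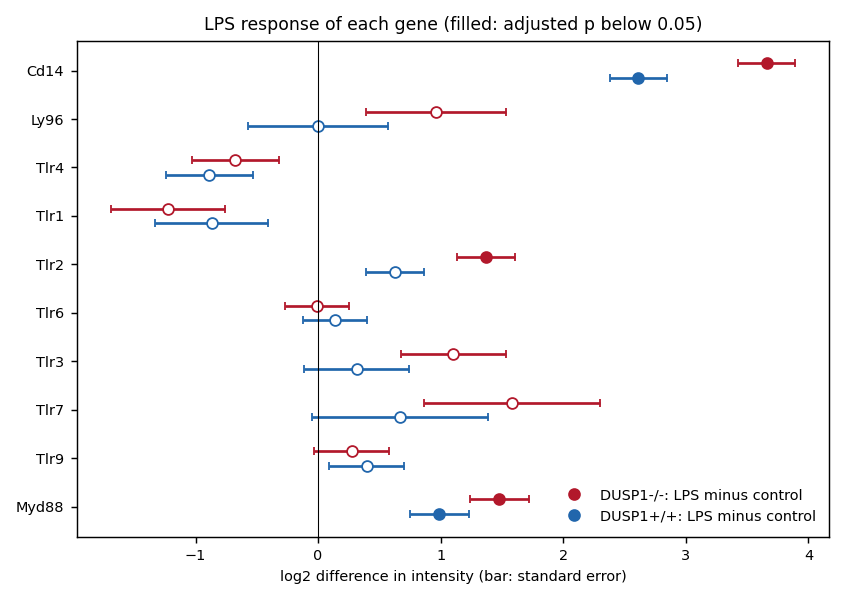
Log2 difference in intensity between LPS and control arrays (x axis) of each gene (y axis), DUSP1-/- above DUSP1+/+, with limma's standard error as bars and n = 3 arrays a group. Filled points passed at an adjusted p under 0.05: Cd14, Tlr2 and Myd88 in DUSP1-/- spleen, and Cd14 and Myd88 in DUSP1+/+ spleen.

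Myd88, the adaptor shared by most of these receptors, rose in both genotypes. It read 1121, 1308 and 981 in DUSP1-/- LPS arrays, against 279, 420 and 570 in DUSP1-/- controls. It read 952, 967 and 919 in DUSP1+/+ LPS arrays, against 456, 429 and 554 in DUSP1+/+ controls. The 6 LPS arrays all lay above the 6 controls, and the DUSP1+/+ LPS values were close together. The rise was 2.78-fold in DUSP1-/- spleen (1.48 ± 0.24, limma adjusted p = 0.00300), called in all 24 alternatives, and 1.98-fold in DUSP1+/+ spleen (0.99 ± 0.24, adjusted p = 0.0345). The DUSP1+/+ call was lost without any 1 of DUSP1-/- LPS 1, DUSP1+/+ LPS 1, 2 or 3, or DUSP1+/+ control 1 or 2 (limma adjusted p up to 0.117), at differences of 0.91 to 1.10 when each array was left out in turn. It was also lost without the 2 arrays with the male pattern (adjusted p = 0.166). The difference between genotypes after LPS was 0.26 ± 0.24 (limma adjusted p = 0.908), although the DUSP1-/- LPS arrays did not overlap the DUSP1+/+ LPS arrays.

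Sequence near a transcript start is shown for Tlr2 and Myd88, which rose, and for Tlr3, of which only the dim probe set passed, because LPS is known to act on target genes through NF-kB and interferon-activated factors, whose sites can be looked for by letter. The stretches are from RefSeq on GRCm38.p6, 5′ to 3′ on the gene's strand, with capitals marking a match. The NF-kB motif searched, on both strands, was GGGA, any base, TT, any base and CC, and the motif for interferon-stimulated response elements was GAAA, any 2 bases and GAAA. Of 32851 windows of 300 bases at gene starts, 1.20% held the first and 3.44% the second. A looser NF-kB pattern (GGG, any 5 bases and CC) was tried first, held by 50.8% of the windows by those of Tlr2 and Tlr3 and by 1 of the 2 of Tlr6, and the stricter letters were chosen after these matches had been seen, so the matches are no test. Windows of Tlr1, Tlr2, Tlr3, Tlr6, Tlr9 and Myd88 were searched, and Cd14, Ly96, Tlr4 and Tlr7 were not searched here. For Tlr2 and Tlr3 only the 30 bases around the match are shown, from the minus strand of chr3:83841761-83841790 and chr8:45410572-45410601. Both of these stretches lie inside the annotated extent of the gene, upstream of the transcript start that the RefSeq window uses. For Myd88 the 250 bases before the start of the gene are shown, from the minus strand of chr9:119340019-119340268.
Tlr2: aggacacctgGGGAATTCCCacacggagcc
Tlr3: agttgtttctGGGAGTTTCCtgcttttgag
Myd88: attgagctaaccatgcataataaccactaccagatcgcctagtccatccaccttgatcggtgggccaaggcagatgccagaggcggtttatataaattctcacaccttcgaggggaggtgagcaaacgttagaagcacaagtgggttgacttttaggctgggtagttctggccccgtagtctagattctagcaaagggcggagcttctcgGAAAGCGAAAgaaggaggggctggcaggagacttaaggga
The Tlr2 match reads the same motif on both strands and starts at -172 from the start its window uses, and the Tlr3 match starts at -211 from its own. The Myd88 match is to the interferon-type motif and starts at -40. In their windows Tlr2 and Tlr3 had no match to the interferon-type motif, and Myd88 had none to the NF-kB motif. Tlr1 and Tlr9, which did not pass after LPS in either genotype, had no match to either motif. Tlr6, which was level, had 2 overlapping matches to the interferon-type motif in 1 of its 2 windows, starting at -116 and -110. A match is a description of letters, not of a bound site.

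The endosomal receptors Tlr3 and Tlr7 depended on the probe set. For Tlr3, which binds double-stranded RNA, the brighter set (1422782_s_at) read 155, 151 and 253 in DUSP1-/- LPS arrays, against 67, 110 and 81 in DUSP1-/- controls. It read 194, 61 and 64 in DUSP1+/+ LPS arrays, against 93, 80 and 53 in DUSP1+/+ controls. The DUSP1-/- groups did not overlap (1.10 ± 0.43, limma adjusted p = 0.132), and in DUSP1+/+ mice only the first LPS array lay above the controls (0.31 ± 0.43, adjusted p = 0.803). The dim set (1422781_at) read 36, 40 and 44 in DUSP1-/- LPS and 16, 18 and 15 in DUSP1-/- control arrays, a 2.45-fold rise that passed (1.29 ± 0.36, limma adjusted p = 0.0377). In DUSP1+/+ arrays it read 44, 15 and 15 after LPS and 16, 21 and 15 in controls (0.32 ± 0.36, limma adjusted p = 0.734). That call was lost without any 1 DUSP1-/- array or without DUSP1+/+ control 1 (adjusted p up to 0.119). Without DUSP1+/+ LPS 1 the rise of the brighter set in DUSP1-/- spleen passed instead (adjusted p = 0.0341), and the dim set was called higher in DUSP1-/- LPS than in DUSP1+/+ LPS arrays (1.41, adjusted p = 0.0291).

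Tlr7, which binds single-stranded RNA, had 3 probe sets that disagreed. The set drawn from an mRNA entry (1422010_at), which is the brightest and stands for the gene here, read 289, 186 and 606 in DUSP1-/- LPS arrays, against 88, 157 and 88 in DUSP1-/- controls. It read 431, 84 and 86 in DUSP1+/+ LPS arrays, against 107, 182 and 40 in DUSP1+/+ controls. The DUSP1-/- arrays did not overlap, but the spread was wide (1.58 ± 0.72, limma adjusted p = 0.201), and in DUSP1+/+ mice again the first LPS array alone was high (0.67 ± 0.72, adjusted p = 0.728, and -0.11 without it).

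The other 2 Tlr7 sets are both drawn from 1 expressed sequence tag, so they are not independent of each other, and the name Tlr7 for them rests on the platform's annotation. The set 1449640_at read 152, 349 and 208 in DUSP1-/- LPS arrays, against 23, 24 and 24 in DUSP1-/- controls. It read 53, 50 and 44 in DUSP1+/+ LPS arrays, against 20, 22 and 21 in DUSP1+/+ controls. LPS arrays lay above controls in both genotypes, and DUSP1-/- LPS arrays lay far above DUSP1+/+ LPS arrays, while all 6 controls lay between 20 and 24. The rise was 9.41-fold in DUSP1-/- spleen (3.23 ± 0.25, limma adjusted p = 4.00e-05) and 2.33-fold in DUSP1+/+ spleen (1.22 ± 0.25, adjusted p = 0.0163). Controls near 20 lie close to the floor of the arrays, which bears on the size of these folds. The set 1419848_x_at, whose suffix marks probes that may match other transcripts, read 213, 382 and 271 in DUSP1-/- LPS and 23, 37 and 22 in DUSP1-/- control arrays. In DUSP1+/+ arrays it read 69, 59 and 46 after LPS and 22, 31 and 24 in controls. Its rise was 10.6-fold in DUSP1-/- spleen (3.40 ± 0.28, limma adjusted p = 5.43e-05) and 2.25-fold in DUSP1+/+ spleen (1.17 ± 0.28, adjusted p = 0.0311). The DUSP1-/- calls of both sets held in every alternative run. The DUSP1+/+ call of 1449640_at was lost without any 1 of DUSP1+/+ LPS 2 or 3 or DUSP1+/+ control 1 (limma adjusted p up to 0.0642). That of 1419848_x_at was lost without any 1 of DUSP1-/- LPS 3 or the 6 DUSP1+/+ arrays (limma adjusted p up to 0.103). Both DUSP1+/+ calls were also lost with an offset of 16 added to the intensities, at 0.81 for 1449640_at (limma adjusted p = 0.0662) and 0.82 for 1419848_x_at (0.0562). They were lost as well without the 3 arrays high in pancreatic transcripts (0.0721 for 1449640_at and 0.0715 for 1419848_x_at) and without the 2 with the male pattern (0.123 for 1449640_at and 0.118 for 1419848_x_at).

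These were the only probe sets of the 14 called between the genotypes after LPS. The DUSP1-/- LPS level was 4.56 times the DUSP1+/+ LPS level for 1449640_at (2.19 ± 0.25, limma adjusted p = 0.0115) and 4.90 times for 1419848_x_at (2.29 ± 0.28, adjusted p = 0.0118), where 0.318% of all probe sets were called. Both calls were lost without any 1 of DUSP1-/- LPS 3 or DUSP1+/+ LPS 2 or 3 (limma adjusted p up to 0.0629). When each array was left out in turn, the differences ran from 1.86 to 2.49. Both calls were also lost with only the groups compared (limma adjusted p = 0.0648 for 1449640_at and 0.0534 for 1419848_x_at). In that setting 0 of 12393 genes passed between genotypes after LPS. The difference between the LPS responses was 2.01 ± 0.35 and 2.23 ± 0.39 (adjusted p = 0.252 for both), and no probe set on the array passed that test. The mRNA-derived set gave 1.13 ± 0.72 between genotypes after LPS (limma adjusted p = 0.780). Transcripts of other tissues also differed between these arrays. The liver list had a mean log2 of 6.75, 9.04 and 8.46 in DUSP1-/- LPS and 6.55, 8.21 and 6.20 in DUSP1+/+ LPS arrays. Its order was that of both of these Tlr7 sets over the DUSP1-/- LPS arrays, but not over the DUSP1+/+ LPS arrays. The liver mean was highest of all in DUSP1-/- control 2 (9.76), where 1449640_at read 24 and 1419848_x_at read 37. The lung list had a mean of 7.42, 4.81 and 6.59 in DUSP1-/- LPS and 5.19, 4.71 and 4.72 in DUSP1+/+ LPS arrays. Its mean was 7.52 and 7.18 in DUSP1-/- control 2 and 3, where 1449640_at read 24 and 24. Dendritic cell markers had a list mean of 6.72 to 6.78 in DUSP1-/- LPS and 6.34 to 6.74 in DUSP1+/+ LPS arrays. The part of liver, lung and dendritic cell transcripts in the Tlr7 values was not tested.

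**Figure D3:**
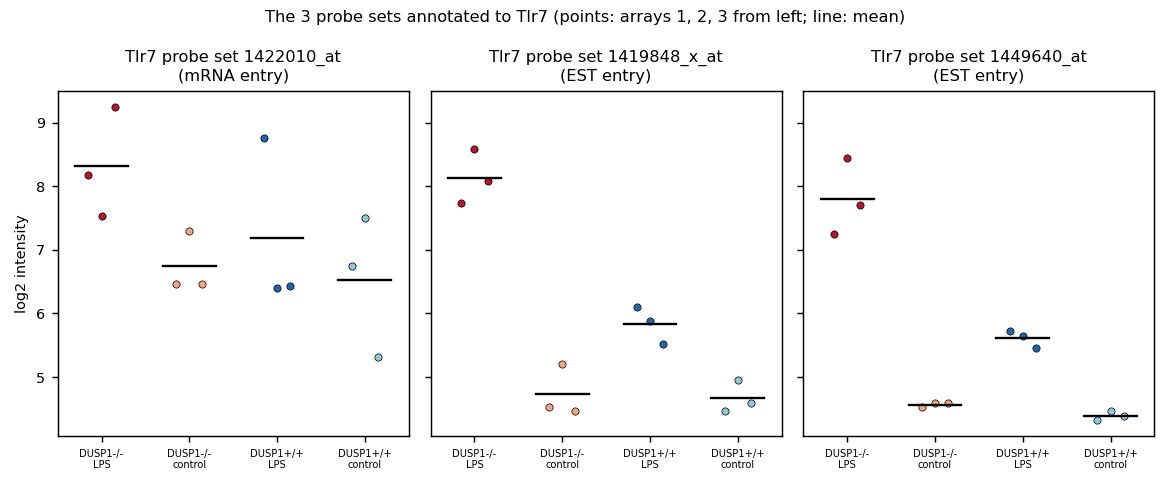
Log2 intensity (y axis) of the 3 probe sets annotated to Tlr7 in the 12 arrays, by group (x axis), with group means as lines. The 2 sets from the expressed sequence tag put all DUSP1-/- LPS arrays above all DUSP1+/+ LPS arrays, whereas in the set from the mRNA entry the first DUSP1+/+ LPS array lies among the DUSP1-/- LPS arrays.

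Tlr9, the receptor for CpG-rich DNA, read 57, 63 and 74 in DUSP1-/- LPS and 66, 53 and 43 in DUSP1-/- control arrays (0.27 ± 0.30, limma adjusted p = 0.661). It read 42, 63 and 91 in DUSP1+/+ LPS and 51, 34 and 61 in DUSP1+/+ control arrays (0.40 ± 0.30, limma adjusted p = 0.582). All 4 groups overlapped.

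Within each LPS group most of the 10 genes were highest in 1 array, which was not so in DUSP1+/+ controls. DUSP1-/- LPS 3 was the highest of its group for 8 of the 10 genes, where it was highest for 26.9% of all genes. DUSP1+/+ LPS 1 was the highest of its group for 8 of the 10, against 28.4% of all genes. In DUSP1-/- controls the second array was highest for 6 of the 10, beside 48.4% of all genes, and in DUSP1+/+ controls the 3 arrays were highest for 3, 4 and 3. The exceptions in the LPS groups were Cd14 and Myd88 in DUSP1-/- LPS 3, and Tlr9 and Myd88 in DUSP1+/+ LPS 1. DUSP1+/+ LPS 1 also had the highest B cell list mean of its group (9.09, against 8.77 and 8.45). The same held for T cell (7.79, against 7.44 and 7.14), dendritic cell (6.74), monocyte and macrophage (7.48) and endothelium (6.41) markers. Neutrophil (8.31) and erythroid (7.97) means were highest in DUSP1+/+ LPS 2. DUSP1-/- LPS 3 had the highest B cell mean of its group (8.56), but not the highest T cell mean (7.46, against 7.73 in DUSP1-/- LPS 2). Its monocyte and macrophage (8.01) and dendritic cell (6.78) means were level with DUSP1-/- LPS 2. The part of these cells in the values was not tested.

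Between genotypes, 0 of the 10 genes passed after LPS by limma in the probe set that stands for the gene, where 0.363% of all genes did (0.218% higher and 0.145% lower), and 3 (Cd14, Tlr1 and Tlr3) had an unadjusted p under 0.05, against 10.2% of all genes. The DUSP1-/- LPS and DUSP1+/+ LPS arrays did not overlap for 3 of the 10, Cd14 and Myd88 higher and Tlr1 lower in DUSP1-/-, beside 8.73% of all genes higher and 9.60% lower without overlap. In controls 0 of the 10 passed, 0 had an unadjusted p under 0.05 and 0 were without overlap, where 0% of all genes passed, 1.42% had such a p and 2.49% were without overlap (1.53% higher and 0.952% lower). The difference between the LPS responses passed for 0 of the 10 genes and 0% of all genes. It was positive for 7 of the 10, with an unadjusted p under 0.05 for Cd14 and Tlr2, against 6.46% of all genes.

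The rest of the pathway was followed through 62 further genes, of which 42 were measured. In DUSP1-/- spleen 8 of the 42 rose and 2 fell after LPS, and in DUSP1+/+ spleen 6 rose and 1 fell, with medians of -0.10 in both. Of all genes, 5.54% rose and 9.71% fell in DUSP1-/- spleen, and 3.93% rose and 4.16% fell in DUSP1+/+ spleen. The same shares stand beside the counts of each list that follows. Between genotypes 0 of the 42 passed, after LPS or in controls, where 0.363% of all genes passed after LPS and 0% in controls. Of 6 other pattern receptors and their partners, 1 rose: Trem1, a receptor that amplifies TLR signals in myeloid cells, read 85, 83 and 81 in DUSP1-/- LPS and 18, 19 and 18 in DUSP1-/- control arrays (2.18 ± 0.28, limma adjusted p = 0.000840). In DUSP1+/+ arrays it read 92, 52 and 40 after LPS and 16, 26 and 18 in controls (1.56 ± 0.28, limma adjusted p = 0.00829). The DUSP1+/+ call of Trem1 was lost with only the groups compared and without the 3 arrays high in pancreatic transcripts. Of 10 accessory and trafficking proteins, 0 passed in DUSP1-/- spleen and 1 fell in DUSP1+/+ spleen, Itgb2, the beta chain of leukocyte integrins (-0.77 ± 0.15, limma adjusted p = 0.0142). That call was lost without DUSP1+/+ LPS 2 or 3 (limma adjusted p up to 0.0614). It was also lost with every array shifted to 1 median (-0.65) and without the 2 arrays with the male pattern.

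Of 14 adaptors, kinases and interferon regulatory factors, 3 rose and 1 fell in DUSP1-/- spleen, and 1 rose in DUSP1+/+ spleen. Irf7, a driver of type I interferon genes, rose in both, by 2.71 ± 0.26 in DUSP1-/- and 3.17 ± 0.26 in DUSP1+/+ spleen (limma adjusted p = 0.000165 and 9.51e-05). Pik3ap1, an adaptor that links TLRs to PI3 kinase, rose by 2.63 ± 0.50 in DUSP1-/- spleen (limma adjusted p = 0.00692). In DUSP1+/+ spleen its difference was 1.59 ± 0.50 (limma adjusted p = 0.0944). Traf6, the ubiquitin ligase downstream of MyD88, rose in DUSP1-/- spleen (1.33 ± 0.32, limma adjusted p = 0.0199). That call was lost without any 1 of DUSP1-/- LPS 1 or 3 or DUSP1-/- control 1 or 3 (adjusted p up to 0.0824). It was lost as well with only the groups compared. Without the 3 arrays high in pancreatic transcripts, which leaves 1 DUSP1-/- control, the difference was 0.61. Irf3, which acts below TLR3 and TLR4, fell in DUSP1-/- spleen (-1.05 ± 0.27, limma adjusted p = 0.0295). Its call was lost without any 1 of DUSP1-/- LPS 1 or 3 or DUSP1-/- control 2 or 3 (adjusted p up to 0.111). Scaling by median, trended and robust variances, and only the groups compared each lost it too. In DUSP1+/+ spleen the differences were 0.26 ± 0.32 for Traf6 and -0.09 ± 0.27 for Irf3.

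Of 7 brakes on the pathway, 3 rose in both genotypes. Socs1, which blocks cytokine signalling, rose by 3.58 ± 0.46 in DUSP1-/- and 4.02 ± 0.46 in DUSP1+/+ spleen. Atf3, a repressor of LPS target genes, rose by 3.83 ± 0.42 in DUSP1-/- and 3.71 ± 0.42 in DUSP1+/+ spleen. Tnfaip3, the enzyme A20 that shuts off NF-kB signalling, rose by 3.26 ± 0.44 in DUSP1-/- and 2.57 ± 0.44 in DUSP1+/+ spleen. All 6 rises had limma adjusted p-values of 0.00685 or less. Ptpn6, the phosphatase SHP-1, fell in DUSP1-/- spleen (-1.46 ± 0.31, limma adjusted p = 0.0113, and 0.0516 without DUSP1-/- LPS 1). Its call was also lost with only the groups compared. Of 5 genes of intracellular LPS sensing and the inflammasome, Casp4, the mouse caspase-11 that binds LPS in the cytosol, rose in DUSP1-/- spleen (2.91 ± 0.67, limma adjusted p = 0.0177). That call was lost without any 1 of DUSP1-/- LPS 1 or 3 or DUSP1-/- control 3 (limma adjusted p up to 0.0716). Without the 3 arrays high in pancreatic transcripts, which leaves 1 DUSP1-/- control, it was lost at a difference of 2.15. Nlrp3, an inflammasome sensor, rose in DUSP1+/+ spleen (0.93 ± 0.24, limma adjusted p = 0.0424). That call was lost without any 1 of the DUSP1-/- LPS or DUSP1+/+ LPS arrays, DUSP1-/- control 3 or DUSP1+/+ control 2 or 3 (limma adjusted p up to 0.147). It was lost as well with trended and robust variances, with only the groups compared and without the 2 arrays with the male pattern.

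**Figure D4:**
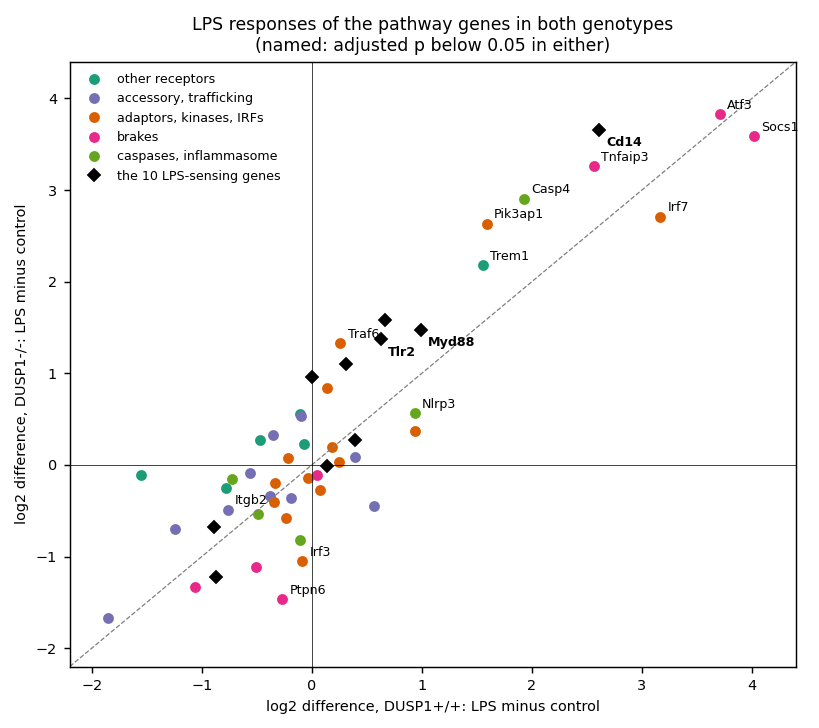
Log2 difference between LPS and control arrays in DUSP1-/- spleen (y axis) against that in DUSP1+/+ spleen (x axis) for the 42 further pathway genes (circles, coloured by role) and the 10 LPS-sensing genes (black diamonds), with a dashed line where both are equal. Cd14 lies among Tnfaip3, Atf3, Socs1 and Irf7 at the upper right, and most other receptors and adaptors lie between -1 and 1.

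The genes whose profile over the 12 arrays was closest to each called member were found by the root mean square difference of log2 values, each gene centred on its own mean, among 8099 genes above the 40th percentile of intensity. Closest to Cd14 were Dhx58, a regulator of RNA sensing (0.31), Rhou, a small GTPase (0.33), and the chemokine gene Ccl7 (0.38). Dhx58 rose by 3.60 ± 0.18 in DUSP1-/- and 2.84 ± 0.18 in DUSP1+/+ spleen. Closest to Tlr2 were Bcl2, which blocks apoptosis (0.20), Sh3gl3 (0.20) and Ddx19b (0.21). Closest to Myd88 were Tapbp, which loads peptides on MHC class I (0.16), Tnip1, a partner of A20 (0.17), and the receptor gene Notch1 (0.19). Tapbp rose by 1.19 ± 0.20 in DUSP1-/- and 1.01 ± 0.20 in DUSP1+/+ spleen. Its DUSP1+/+ call was lost without DUSP1+/+ LPS 2 or 3 or DUSP1+/+ control 2 (limma adjusted p up to 0.0659), and without the 2 arrays with the male pattern. Tnip1 rose by 1.52 ± 0.23 in DUSP1-/- and 1.34 ± 0.23 in DUSP1+/+ spleen.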

How the data were processed

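Spleen RNA (5 µg per mouse) was hybridised to 12 arrays. Per the series' design text the authors normalized the scanned arrays globally and summarised the probes by RMA with the affy package for R. The deposited table gives each probe set an intensity that is not on a log scale, in whole numbers from 6 to 15228. Array medians ran from 47 to 63. Software versions are not given in the sources used here. The number of arrays and signal over background limit the precision.

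Groups came from the sample titles. The intensities were log2-transformed here, 64 of 22690 probe sets were left out as controls, and 22626 were tested. Of these 20380 named 1 gene in the platform's table, 691 several and 1555 none, and symbols were updated through gene identifiers in RefSeq. A gene was read from its brightest probe set, using an _x_at set only for genes with no other (12393 genes). All 14 member probe sets named 1 gene, and 12 of them, covering all 10 genes, lay above the 40th percentile of mean intensity (30.5). A model of 4 group means was fitted with limma 3.58.1 in R 4.3.3 (8 residual and 2.72 prior degrees of freedom), and 5 contrasts were tested two-sided with Benjamini-Hochberg adjustment over all probe sets at 0.05. The code was tested on simulated data.

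The 10 members and the pathway and marker lists were chosen with earlier results of these data known. Other pathway genes were named where called, up to 4 per list and contrast with the largest difference, and the like profiles as the 3 closest of each called member. Alternatives were scaling by median, cyclic loess or quantiles, a filter on dim probe sets, an offset of 16, trended and robust variances, array weights, a replicate block, only the groups compared, the mean of a gene's probe sets, and each array left out. Added after seeing the data were fits without the 3 arrays high in pancreatic transcripts and without the 2 with the male pattern. Same-numbered DUSP1-/- and DUSP1+/+ controls deviated from their group means together (correlations across probe sets of 0.14, 0.14 and 0.28), with no source in the labels for a pairing. For DUSP1-/- control 1 the best match was DUSP1+/+ control 2. Over all 18 pairs of same-numbered arrays in different groups the correlations ran from -0.58 to 0.63.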

Additional observations from a re-analysis of the deposited data

How the results depend on the processing

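Of 70 differences read from the 14 member probe sets in 5 contrasts, 12 passed, and 5 of these passed in every alternative run. None of the 12 changed sign, while 24 of the 58 that did not pass changed sign in at least 1 alternative and 10 passed in at least 1. The count of members called in DUSP1-/- spleen after LPS was 3, from 3 to 4 when 1 array was left out and from 2 to 4 otherwise. In DUSP1+/+ spleen it was 2, from 1 to 2 when 1 array was left out, and it was 1 with trended and robust variances, with the replicate block and without the 2 arrays with the male pattern, in each case because the Myd88 call was lost (adjusted p = 0.0549, 0.0552 and 0.166). It was 3 with array weights, which also passed Tlr4 as lower (-1.11, limma adjusted p = 0.0417). That setting called 15.3% of all genes in DUSP1+/+ spleen, against 8.09% in the main setting. After LPS between genotypes the count of members called was 0, but 4 with array weights, which called 10.3% of all genes, against 0.363% in the main setting. These 4 were Cd14 (0.72, limma adjusted p = 0.0208), Tlr2 (0.68, 0.0215), Tlr3 (1.34, 0.0196) and Tlr7 (1.77, 0.0471). The count was 1 with the mean of a gene's probe sets (Tlr7, limma adjusted p = 0.0394), where 0.420% of all genes were called. It was 0 in every alternative in controls and for the difference between responses. The replicate block also ended the calls of the dim Tlr3 probe set in DUSP1-/- spleen (adjusted p = 0.0558, and up to 0.242 over its 22 alternatives) and of Nlrp3 in DUSP1+/+ spleen (0.0802), and changed no other call of the genes named. Of 18 pairs of same-numbered arrays in different groups, 6 deviated together with a correlation above 0.1, from -0.58 to 0.63 over all pairs. In 6 of the 18 the same number gave the best correlation among the 3 arrays of the other group. Shifting every array to 1 median moved the median of all genes by 0.22 (log2) in DUSP1-/- and 0.12 in DUSP1+/+ spleen, and the higher share of calls to 55.1%, against 36.3% in the main setting, in DUSP1-/- spleen and to 59.5%, against 48.6%, in DUSP1+/+ spleen. The cause of these changes was not tested. Probe sets near 20 can show a fall only in part.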
